A study of Mus musculus with 12 samples.

Results

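The genes described here code for SR proteins, heterogeneous nuclear ribonucleoproteins (hnRNPs), proteins of the small nuclear ribonucleoproteins (snRNPs) and subunits of the SF3a and SF3b complexes, which together bind and splice nuclear RNA. Members were chosen by name, as the protein-coding genes whose mouse symbol begins with Srsf and a digit, Hnrnp, Snrp, or Sf3a or Sf3b and a digit. The rule gave 52 genes of the 47643 in the count table, with 11 SR proteins, 20 hnRNPs, 12 snRNP proteins and 9 SF3 subunits, and left out 5 genes with such names that are annotated as pseudogenes. They were compared between viable brain cells with low (RFPLow, labelled RFPneg) and high (RFPHigh, labelled RFPpos) red fluorescence, sorted from the same 5 old male p16-3MR mice of C57BL/6 background, which were 113 weeks (mouse 1), 115 weeks (mouse 2) and 116 weeks of age (mice 3 to 5). Every mouse, and so both groups, carried the 3MR transgene, a reporter run from the p16 promoter that makes cells fluoresce red. Its product also holds a luciferase and a shortened thymidine kinase of viral origin. The sort selected cells by the red fluorescence of this reporter and not by a marker of a cell type. Each group had 5 samples, 1 per mouse, and the 2 single-cell samples of the series were not analysed here.

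An intron is removed by the spliceosome, most of whose snRNPs hold a short RNA inside a ring of Sm proteins, and whose SF3 complexes help the U2 snRNP to grip the branch point. SR proteins bind mostly to exons and recruit this machinery, while hnRNPs coat the nascent RNA and often repress nearby splice sites, so that the balance of both sets which exons are kept. Most of these genes are expressed in cells of all kinds, and altered levels of splicing factors have been described in ageing and in senescent cells.

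The libraries were made from the 3′ ends of transcripts, which gives 1 tag per molecule, and the authors deposited whole-number counts per gene. In mice 1 to 5 the counts on genes were 177287, 196103, 415834, 248471 and 299680 in RFPLow and 222560, 289713, 223052, 250482 and 242798 in RFPHigh, so that the shallowest and the deepest sample were both RFPLow. Levels are given as CPM, the counts scaled to a library of fixed size by TMM (a trimmed mean of the log ratios between samples), and, since a transcript gives 1 tag whatever its length, they are not divided by length. The low-count filter asked for 5 samples or more with the CPM equal to 10 counts in the median library, and 4210 of the 18571 genes with a count passed it. Differences were tested with edgeR's quasi-likelihood test with the mouse as a block, and p-values were adjusted over all genes tested by the Benjamini-Hochberg method. A gene was called at an adjusted p under 0.05. Fold changes are the log2 of RFPHigh over RFPLow.

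Markers of several cell types differed between the fluorescence groups. All 20 microglia markers were called higher in RFPHigh, and the most abundant of them was *Ctss*, a lysosomal protease. They summed to 23487, 15095, 16820, 15981 and 21172 CPM in RFPLow and 49254, 38517, 38339, 37595 and 35597 CPM in RFPHigh, with no overlap between the groups. The 12 endothelial markers, led by *Flt1*, summed to 2172, 6615, 7300.1, 9749 and 5366 CPM in RFPLow and 143, 197, 297, 436 and 328 CPM in RFPHigh. All 10 of them that were tested were called lower. The 10 oligodendrocyte markers, led by *Mbp*, had 4128, 2459, 1577, 1611 and 1842 CPM in RFPLow and 439, 169.9, 302, 205 and 273 CPM in RFPHigh, and all 8 tested were called lower. The 7 neutrophil markers, led by *S100a8*, had 2580, 2701, 7269, 4554 and 2328 CPM in RFPLow and 54.2, 122, 180.2, 0 and 0 CPM in RFPHigh, and all 6 tested were called lower. For the 10 astrocyte markers, led by *Slc1a2*, the sums were 4298, 5927, 5624, 4432 and 4912 CPM in RFPLow and 1124, 2991, 5405, 5745 and 5055 CPM in RFPHigh, where mouse 1 was far below the rest, and 4 of the 9 tested were called lower. No microglia, endothelial, oligodendrocyte or astrocyte marker was at 0 in every RFPHigh sample, while *Ly6g*, which defines neutrophils, was at 0 in all 5. In bulk samples fewer cells of a type and less RNA per cell cannot be told apart, and the part of these differences in the results on splicing genes was not tested. The reporter follows the p16 promoter, but *Cdkn2a*, the locus that encodes p16, had 2, 0, 0, 2 and 4 counts in RFPLow and 0 counts in all 5 RFPHigh samples. These few counts ran opposite to the reporter, but a count of 0 allows up to 3 counts, and they are too few to check the sort. The paper itself reports that its RFPHigh sort was enriched for cells with much p16 transcript.

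No member was called higher in RFPHigh and 5 were called lower, at least 1 in each class but the SF3 subunits. They were *Srsf7*, *Hnrnpdl*, *Hnrnph3*, *Snrpd1* and *Snrpe*. With a mouse left out between 2 and 6 members were called lower, beside 8.30% to 10.95% of all genes tested. There were 2 with DESeq2 (9.38% of all genes) and 1 with no low-count filter (4.49%). Of the 52 members 34 passed the minimum count, and the 5 that were called are 14.7% of these, near the 11.6% of all 4210 tested genes that were called lower (489 genes), while 10.1% of all tested genes (427 genes) were called higher. The share of calls therefore does not set the members apart from the other genes. At an unadjusted p under 0.05, edgeR found 11 of the 34 members lower and 0 higher, against 743 lower and 648 higher of all 4210 genes, and neither DESeq2 nor limma-voom called a member higher after adjustment. The groups did not overlap in 6 of the 34 members and in 697 of all 4210 genes tested, and 10 members and 704 of all genes tested were lower in RFPHigh in all 5 mice. The log2 fold change was below 0 in 27 of the 34 members and in 2205 of all 4210 genes tested, and its median was −0.25 over the members tested and −0.03 over all genes tested, with the members' median below 0 under every scaling tried. Of the 34 members 31 reached the minimum in all 10 samples, but *Snrpd1* reached it in every RFPLow and in no RFPHigh sample, and *Snrpe* in 5 RFPLow and 2 RFPHigh samples, so that a gene as weakly expressed as these could be tested only because it was high in RFPLow. With all 18571 genes that had a count tested, the median was −0.26 over all 52 members and −0.25 over all genes in that fit, where most genes lie under the minimum count, so that the members' lower median beside all genes depended on the filter.

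**Figure D1:**
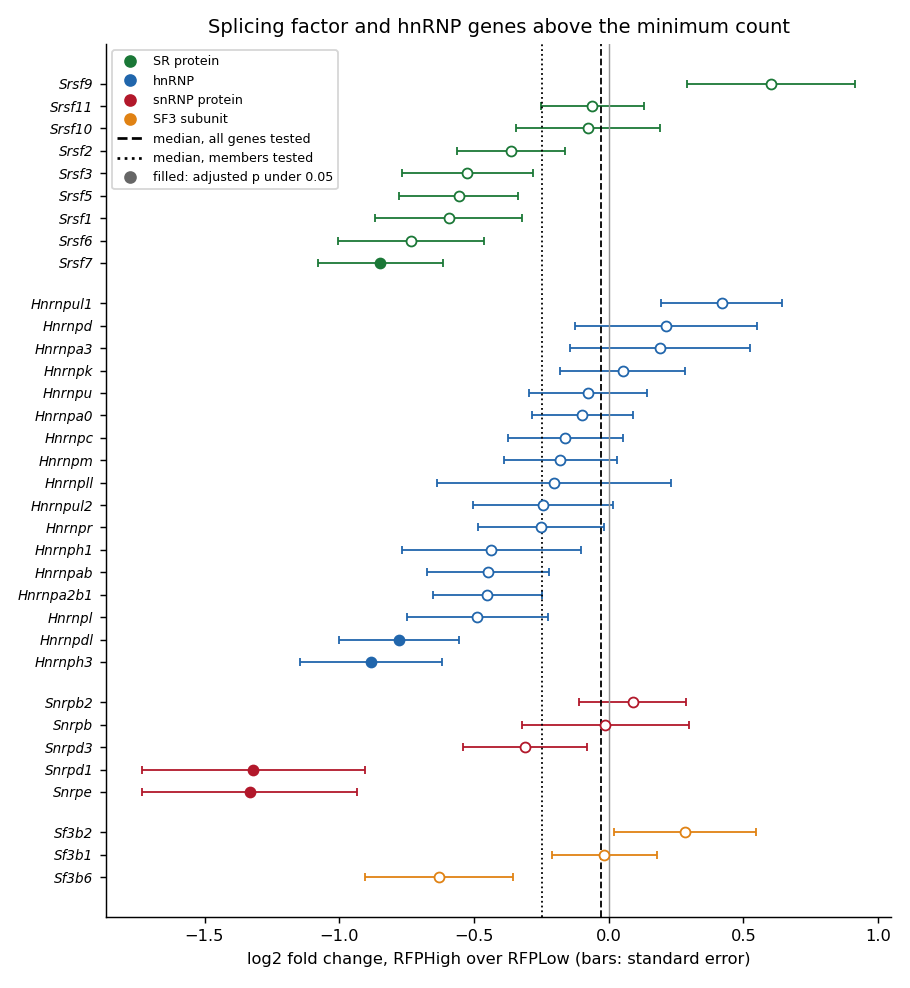
The log2 fold change of RFPHigh over RFPLow (horizontal axis) of the 34 members above the minimum count, by class, with bars of 1 standard error; filled points had an adjusted p under 0.05. The 5 filled points lie between −1.33 and −0.78, the median of the members (dotted) is −0.25 and that of all genes tested (dashed) is −0.03.

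The members' log2 fold changes ran from −1.33 to 0.60, against −8.16 to 2.73 over all genes tested. With a log2 fold change under −1 also required, 9.14% of all tested genes were lower (385 genes), and of the members only *Snrpe* and *Snrpd1* were. In the plot of fold change against level the members lie within the dense middle of the cloud or a little below it.

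**Figure D2:**
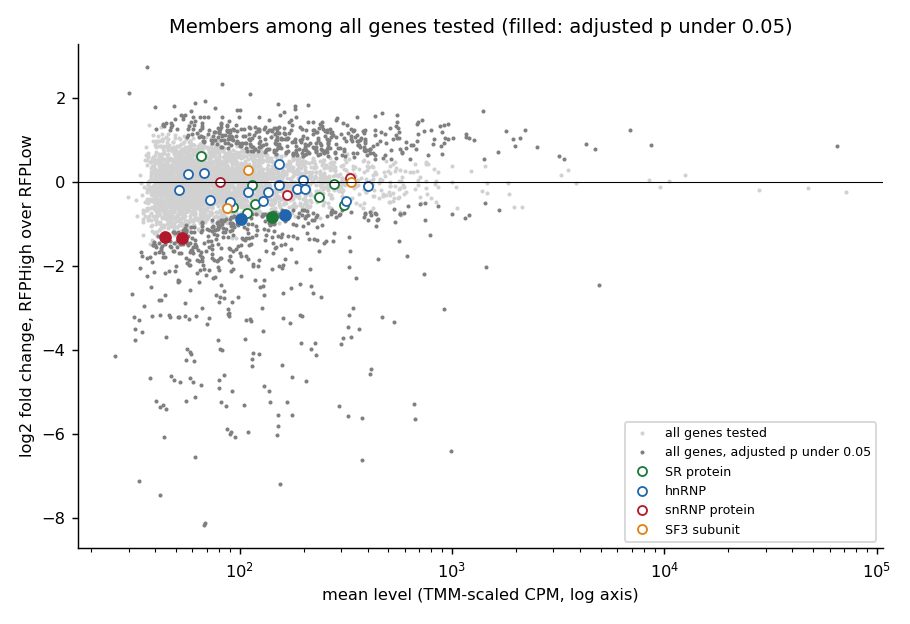
The log2 fold change of RFPHigh over RFPLow (vertical axis) against the mean level in TMM-scaled CPM (horizontal log axis) of all 4210 genes tested (grey; darker where the adjusted p was under 0.05), with the members in colour and filled where called. The called members lie between −1.33 and −0.78, while the genes as a whole reach from −8.16 to 2.73.

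The promoter table of RefSeq (GRCm38.p6) held 63 windows for 46 of the 52 members, each with 250 bases before a transcription start, and 32851 windows in all. The motifs, 5 short runs of letters chosen after their matches had been seen, were searched on both strands, and none contains another. The GC box GGGCGG was in 66.7% of the members' windows and in 32.7% of all windows, and the ETS core CCGGAAG in 30.2% and 6.91%. The CCAAT box CCAAT was found in 42.9% and 33.8%, the TATA box TATAAA in 9.52% and 12.4%, and GCATGCGC, a core of NRF1 motifs, in 4.76% and 2.26%. The windows of the members were also richer in G and C, with a median of 60.8% against 52.4%, and the part of this in the shares of the GC-rich motifs was not tested. A match describes letters and not a bound site. Shown are the windows of 1 called SR protein gene and 1 called Sm protein gene, *Srsf7* (GRCm38.p6 chr17:80207308-80207555, minus strand) and *Snrpe* (chr1:133610292-133610530, minus strand), from 5′ to 3′ and without the bases that lie inside the annotated gene. Capitals mark matches to any of the motifs on either strand.
Srsf7: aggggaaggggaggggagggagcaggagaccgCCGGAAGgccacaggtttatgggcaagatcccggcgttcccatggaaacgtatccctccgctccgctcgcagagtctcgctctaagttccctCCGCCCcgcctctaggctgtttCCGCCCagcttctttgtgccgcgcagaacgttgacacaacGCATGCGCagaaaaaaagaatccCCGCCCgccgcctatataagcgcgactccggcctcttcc
Snrpe: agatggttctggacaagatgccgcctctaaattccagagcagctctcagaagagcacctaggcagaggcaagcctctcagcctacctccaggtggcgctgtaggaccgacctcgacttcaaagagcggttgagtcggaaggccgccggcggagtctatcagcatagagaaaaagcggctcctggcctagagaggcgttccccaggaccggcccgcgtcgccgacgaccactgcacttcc
The *Srsf7* window holds 3 matches to the GC box, 1 to the ETS core and 1 to GCATGCGC, and the *Snrpe* window holds no match to these letters. The windows of *Hnrnpdl* and *Hnrnph3* reach further into the annotated genes than those shown and were left out. No window of *Snrpd1*, the other called Sm protein gene, is shown.

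Of the 11 SR protein genes 9 were tested, 8 had a log2 fold change below 0, and *Srsf7* was the one called. *Srsf7* (ENSMUSG00000024097; GRCm38 chromosome 17, 80200080 to 80207307, minus strand) codes for an SR protein with a zinc knuckle that acts in splicing, the choice of polyadenylation sites and RNA export. Its level in mice 1 to 5 was 170.1, 158, 169.6, 177 and 244 CPM in RFPLow and 83.8, 102, 105, 121 and 93.9 CPM in RFPHigh. The sample of mouse 5 was the highest of RFPLow, the groups did not overlap, and RFPHigh was lower in 5 of 5 mice. The level fell with a fold change of −0.85 (standard error 0.23), from 184 ± 34.5 CPM to 101 ± 13.9 CPM (SD, n = 5 each), and edgeR gave an adjusted p of 0.0121. Over the 13 alternatives other than a scaling by microglia genes the adjusted p ran from 0.00287 to 0.0551, and the call was lost without mouse 5 (0.0550) and with no low-count filter (0.0551).

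The 3 most abundant SR protein genes did not pass edgeR's quasi-likelihood test. *Srsf5*, whose protein favours the inclusion of exons with its binding sites, had 249.5, 282, 366, 443 and 518 CPM in RFPLow and 256, 285, 268, 224 and 205 CPM in RFPHigh. The RFPLow samples of mice 3, 4 and 5 were above all RFPHigh samples and those of mice 1 and 2 were among them. The fold change was −0.56 (standard error 0.22, edgeR adjusted p = 0.0822), and with a mouse left out it ran from −0.68 to −0.35, the latter without mouse 5. Over the same alternatives the adjusted p ran from 0.0284 to 0.314, with calls by limma-voom, with total reads, without the block and without mouse 1. *Srsf2*, whose protein is the classical component of nuclear speckles, had 267 ± 46.7 and 208 ± 23.9 CPM (SD, n = 5 each) and a fold change of −0.36 (adjusted p = 0.221). *Srsf11*, also a protein of speckles, had the smallest difference of the 3, with 283 ± 46.9 against 271 ± 53.8 CPM and −0.06 (adjusted p = 0.875). Named after their values were seen, *Srsf6* came nearest to the threshold with −0.73 (adjusted p = 0.0619, 0.0274 to 0.230 over the same alternatives), and was called by the likelihood ratio test, by limma-voom, with total reads and without mouse 1. *Srsf9* had the highest value of the 34 members tested with 0.60 (adjusted p = 0.189). *Srsf9* had 62.4, 49.5, 53.3, 46.4 and 48.9 CPM in RFPLow and 69.0, 91.8, 88.0, 64.5 and 81.1 CPM in RFPHigh. Every RFPHigh sample was above every RFPLow sample, opposite to *Srsf7*, but the difference did not pass the test. The remaining members of the class that were tested, *Srsf1*, *Srsf3* and *Srsf10*, had log2 fold changes of −0.59, −0.52 and −0.08. The median of the 9 was −0.52. The counts of *Srsf2*, with *Mfsd11* and *Mettl23* on the opposite strand (147 counts in all), and of *Srsf11*, with *Gm43362* on the same strand (69 counts in all), are uncertain for this overlap.

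Among the 20 hnRNP genes 17 were tested and 2 were called. *Hnrnpdl* (ENSMUSG00000029328; GRCm38 chromosome 5, 100033577 to 100039664, minus strand) codes for a relative of hnRNP D that binds AU-rich RNA. It had 176, 168, 220.5, 198 and 267 CPM in RFPLow and 148, 109, 96.4, 118 and 132 CPM in RFPHigh. Every RFPHigh sample was below every RFPLow sample, and the RFPLow sample of mouse 5 was the highest of all. With means of 206 ± 39.9 and 121 ± 20.1 CPM (SD, n = 5 each) the fold change was −0.78 (standard error 0.22), lower in 5 of 5 mice, and the adjusted p of edgeR was 0.0160 (0.00479 to 0.0897 over the same alternatives). The call was lost without mouse 3 (0.0897), without mouse 5 (0.0524), with DESeq2 (0.0639) and with no low-count filter (0.0784).

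*Hnrnph3* (ENSMUSG00000020069; GRCm38 chromosome 10, 63014664 to 63024217, minus strand) codes for a member of the hnRNP H group, which binds runs of G. The levels were 96.4, 139, 128, 131 and 163 CPM in RFPLow and 69.0, 95.2, 58.7, 45.5 and 93.9 CPM in RFPHigh. The groups came close but did not overlap, with the lowest RFPLow sample, of mouse 1, just above the highest RFPHigh samples, of mice 2 and 5. The group means were 131 ± 23.9 and 72.5 ± 21.8 CPM (SD, n = 5 each), and *Hnrnph3* was lower in 5 of 5 mice. Its fold change of −0.88 (standard error 0.26) had an adjusted p of 0.0215 with edgeR, and of 0.00642 to 0.0943 over the same alternatives. The threshold was missed without mouse 3 (0.0848), without mouse 4 (0.0784), by DESeq2 (0.0728) and with no low-count filter (0.0943). *Rufy2* overlaps it on the opposite strand with 103 counts in all, and the sources used here do not give whether counting used the strand, so that its value is uncertain.

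The most abundant hnRNP genes did not pass the test. *Hnrnpa0*, the most abundant member of all, which binds AU-rich RNA of inflammatory transcripts, had 437, 336, 451, 413 and 421 CPM in RFPLow and 459, 398, 448, 387 and 256 CPM in RFPHigh. The groups overlapped, with the RFPHigh sample of mouse 5 the lowest of all 10. The fold change of −0.10 (standard error 0.19, adjusted p = 0.777) turned above 0 without mouse 5. *Hnrnpa2b1*, which also carries RNA into cell processes, had 361 ± 67.7 and 274 ± 109.6 CPM (SD, n = 5 each) and −0.45 (adjusted p = 0.127), lower in RFPHigh in 5 of 5 mice. *Hnrnpm*, which binds GU-rich RNA, had 215 ± 45.1 and 190.4 ± 49.0 CPM and −0.18 (adjusted p = 0.610), and shares its strand and part of its span with *March2* (97 counts in all). The other 12 tested lay between −0.49 (*Hnrnpl*) and 0.42 (*Hnrnpul1*), both named after their values were seen. The median of the 17 was −0.20, with 13 below and 4 above 0.

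**Figure D3:**
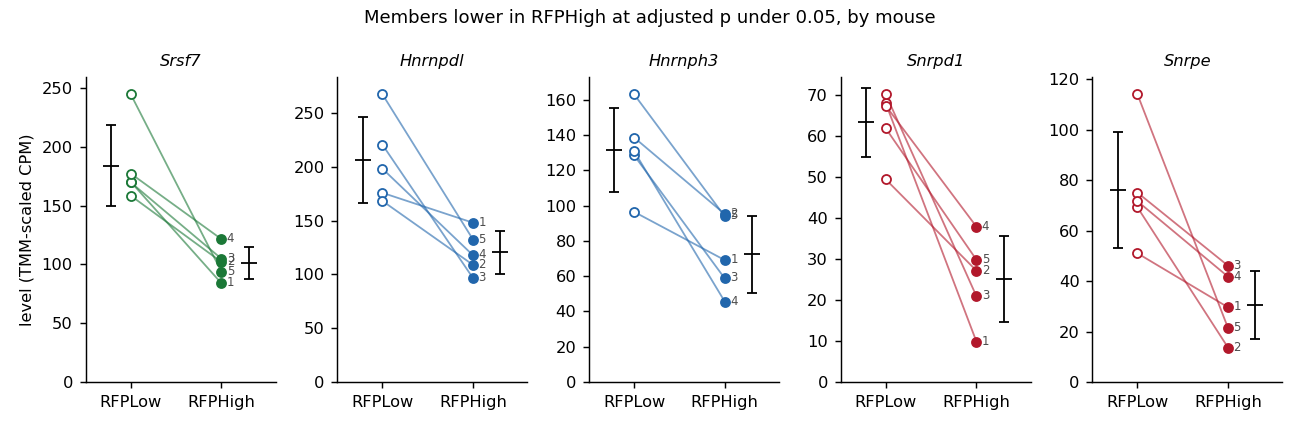
The level in TMM-scaled CPM (vertical axis, from 0) of the 5 called members in each sample, RFPLow as open and RFPHigh as filled points, joined within a mouse and numbered by mouse; bars are the mean and SD of 5 samples. In each panel all 5 lines go down and the groups do not overlap.

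The lowest values of the members were in the Sm ring. *Snrpe* (ENSMUSG00000090553; GRCm38 chromosome 1, 133603871 to 133610291, minus strand) and *Snrpd1* (ENSMUSG00000002477; GRCm38 chromosome 18, 10617775 to 10642079, plus strand) code for SmE and SmD1, 2 of the proteins of the ring that is built on the spliceosomal RNAs. *Snrpe* had 51.0, 69.3, 75.1, 71.7 and 114 CPM in RFPLow and 29.6, 13.6, 46.1, 41.7 and 21.3 CPM in RFPHigh. Mouse 5 had the highest RFPLow sample, and no RFPHigh sample reached the lowest RFPLow sample, that of mouse 1. It fell in 5 of 5 mice, with 76.2 ± 23.1 CPM in RFPLow and 30.5 ± 13.6 CPM in RFPHigh (SD, n = 5 each), resting on 106 and 37 counts. The fold change was −1.33 (standard error 0.40), with 0.0218 as edgeR's adjusted p (0.00451 to 0.0982 over the same alternatives). Leaving out mouse 2 (0.0932) or mouse 5 (0.0982) ended the call. The end of its transcript is shared with 2 other loci, of which *Snrpert* had 6 counts in RFPLow and 7 in RFPHigh, so that its counts are uncertain.

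*Snrpd1* had 68.0, 49.5, 70.3, 67.5 and 61.9 CPM in RFPLow and 9.86, 27.2, 20.9, 37.9 and 29.9 CPM in RFPHigh. All RFPHigh samples were below all RFPLow samples, and that of mouse 1 was the lowest. On 86 and 32 counts the means were 63.4 ± 8.39 and 25.2 ± 10.5 CPM (SD, n = 5 each). *Snrpd1* reached the minimum count in 5 RFPLow and 0 RFPHigh samples and so was tested only through the group where it was high. The fold change was −1.32 on the log2 scale (standard error 0.41), for which edgeR's adjusted p was 0.0281, with 0.00551 to 0.117 over the same alternatives. The call was lost without mouse 1 (0.105), mouse 2 (0.0508) or mouse 3 (0.117), with limma-voom (0.0673), with DESeq2 (0.0506) and with no low-count filter (0.0652).

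The other 3 snRNP protein genes tested were the 3 most abundant of the class. *Snrpb2*, a protein of the U2 snRNP, had 238, 386, 327, 261 and 385 CPM in RFPLow and 360.0, 275, 293, 334 and 439 CPM in RFPHigh. The groups overlapped over most of their range, and the fold change was 0.09 (standard error 0.20; edgeR, adjusted p = 0.810). *Snrpd3* (SmD3) had a fold change of −0.31 (edgeR, adjusted p = 0.392), which ran from −0.45 to −0.13 with a mouse left out. *Snrpb* (SmB) had −0.01 (edgeR, adjusted p = 0.991), with 80.2 ± 19.4 and 80.7 ± 21.1 CPM (SD, n = 5 each). The direction of *Snrpb2* turned with the scaling, and that of *Snrpb* with the filter. The Sm ring was grouped after the values were seen and was not tested as a group. Its 8 genes here, *Snrpb*, *Snrpn*, *Snrpd1*, *Snrpd2*, *Snrpd3*, *Snrpe*, *Snrpf* and *Snrpg*, summed to 437, 628, 586, 565 and 518 CPM in RFPLow and to 355, 282, 348, 395 and 375 CPM in RFPHigh. All RFPHigh sums were below all RFPLow sums.

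Of the 8 Sm genes 4 were under the minimum count. With all 18571 genes tested, *Snrpn*, an imprinted gene best known from neurons, had 45 and 13 counts and a fold change of −1.57 (edgeR, adjusted p = 0.144), *Snrpg* 48 and 17 counts and −1.35 (0.197), *Snrpd2* 64 and 26 counts and −1.21 (0.165) and *Snrpf* 35 and 26 counts and −0.24 (0.898). None of these 4 passed after adjustment, and of the 8 genes 5 were lower at an unadjusted p under 0.05, as were 1668 of all 18571 genes. *Snrpe* was the one member called in that fit (adjusted p = 0.0335), where 4.49% of all genes were called lower (834 genes). The neuron markers, which bear on *Snrpn*, summed to 232, 233, 349, 291 and 313 CPM in RFPLow and 143, 74.8, 88.0, 22.8 and 89.6 CPM in RFPHigh, with no overlap, 1 of 2 tested called lower, *Stmn2* the most abundant and none of the 9 at 0 in every RFPHigh sample. Their part in its level was not tested.

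None of the SF3 subunits was called by edgeR, DESeq2 or limma-voom, and at an unadjusted p under 0.05 edgeR found 1 lower, *Sf3b6*. Only 3 of the 9 passed the minimum count, and these are the 3 named by the rule. *Sf3b1*, the large subunit that holds the branch point and is often mutated in blood cancers, had 244, 356, 329.5, 379.5 and 368 CPM in RFPLow and 335, 435, 306, 341 and 256 CPM in RFPHigh. The groups overlapped, and the means of 335 ± 54.5 and 335 ± 65.5 CPM (SD, n = 5 each) differed by far less than the spread. The fold change was −0.02 (standard error 0.19, adjusted p = 0.975), and its sign changed with the filter and with the mouse left out. *Sf3b2*, which contacts the RNA beside the branch point, had 0.28 (adjusted p = 0.504). *Sf3b6*, whose protein touches the branch point itself, had 68.0, 104, 145, 97.0 and 114 CPM in RFPLow and 54.2, 64.6, 88.0, 83.5 and 51.2 CPM in RFPHigh. It was lower in RFPHigh in 5 of 5 mice with overlapping groups and did not pass the test (−0.63, adjusted p = 0.117).

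The 18 members under the minimum count had between 1 and 104 counts over all 10 samples. They were the SR protein genes *Srsf4* (85 counts) and *Srsf12* (1 count), the hnRNP genes *Hnrnpa1* (23), *Hnrnpf* (22) and *Hnrnph2* (18), 7 snRNP protein genes with 45 to 90 counts and 6 SF3 subunits with 23 to 104 counts. Besides the 4 Sm genes the snRNP protein genes were *Snrpa*, *Snrpa1* and *Snrpc*, and the SF3 subunits were *Sf3a1*, *Sf3a2*, *Sf3a3*, *Sf3b3*, *Sf3b4* and *Sf3b5*. With all genes tested, 13 of the 18 and 11025 of all 18571 genes had a log2 fold change below 0. In that fit edgeR called none of the 18, with 3 lower and 0 higher at an unadjusted p under 0.05. Of all 18571 genes 1668 were lower and 980 higher at this unadjusted p. At this depth only large differences in the 18 members could be detected.

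Summed over all 52 genes, the members had 5619, 5967, 6217, 6207 and 6784 CPM in RFPLow and 5312, 5250.5, 4986, 4925 and 5213 CPM in RFPHigh. Every RFPHigh sample was below every RFPLow sample, with means of 6159 ± 425 and 5137 ± 171 CPM (SD, n = 5 each), a ratio of 0.834. The sum was lower in RFPHigh in 5 of 5 mice for the SR proteins (1693 ± 211 against 1304 ± 109.8 CPM), the hnRNPs (2804 ± 211 against 2431 ± 187 CPM) and the snRNP proteins (947 ± 88.5 against 739 ± 84.5 CPM), and in 3 of 5 mice for the SF3 subunits (715 ± 77.3 against 664 ± 135 CPM). These sums are a description and were not tested. Taken within a mouse, the median log2 difference of the tested members was −0.03 in mouse 1 and −0.32, −0.35, −0.50 and −0.36 in mice 2 to 5, so that mouse 1 differed least. The RFPHigh sample of mouse 1 also had the highest summed level of the microglia markers (49254 CPM) and the lowest of the astrocyte markers (1124 CPM). Whether these marker levels bear on the members' difference in mouse 1 was not tested.

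**Figure D4:**
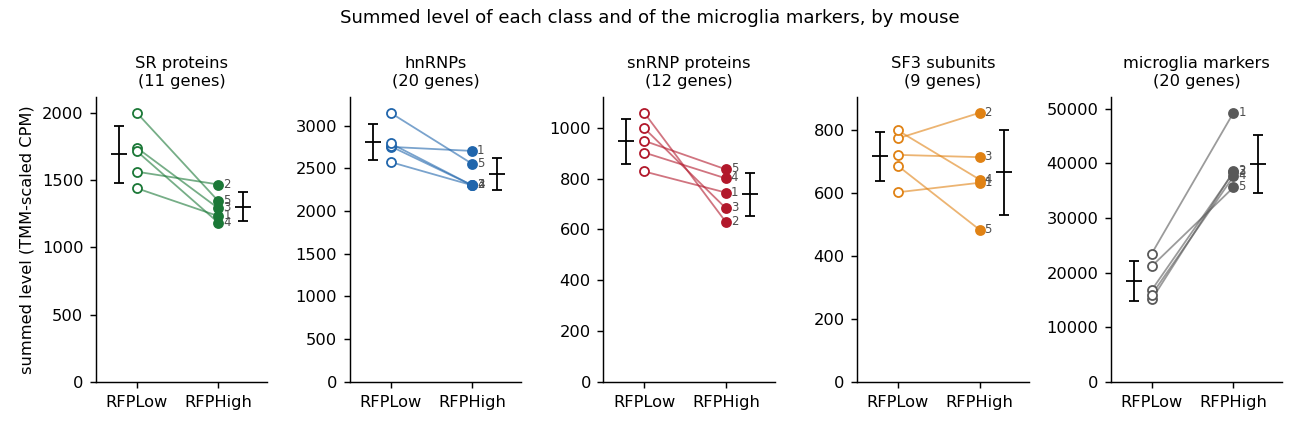
The summed level in TMM-scaled CPM (vertical axis, from 0) of the members of each class and of the 20 microglia markers in each sample, RFPLow as open and RFPHigh as filled points, joined within a mouse and numbered by mouse; bars are the mean and SD of 5 samples. The SR protein, hnRNP and snRNP protein sums go down in all 5 mice, the SF3 sums in 3, and the microglia sums go up in all 5.

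Measures that can bear on handling and on RNA composition were also compared between the groups. The immediate early genes, which respond to tissue dissociation, summed to 1429, 1702, 1809.9, 1881 and 1962 CPM in RFPLow and 1391, 1145, 1433, 1172 and 1105 CPM in RFPHigh. They were lower in 5 of 5 mice with overlapping groups, with 3 of the 10 tested called lower and *Fos*, *Fosb* and *Egr3* at 0 in every RFPHigh sample, and *Egr3* also in every RFPLow sample. Their most abundant gene, *Ier5*, was not called and went the other way, with 250.3 ± 25.1 CPM in RFPLow and 309.9 ± 77.9 CPM in RFPHigh (SD, n = 5 each), higher in 4 of 5 mice. The nuclear-retained RNAs, led by *Malat1*, summed to 21723, 23916, 28912, 33607 and 41106 CPM in RFPLow and 19441, 21923, 25777, 23396 and 40477 CPM in RFPHigh. This sum was lower in 5 of 5 mice with overlapping groups, with 1 of 3 tested called lower and *Miat* at 0 in every RFPHigh sample. *Malat1* itself was not called (log2 fold change −0.18, edgeR adjusted p = 0.447). Mitochondrially encoded genes, of which 0 of 11 tested were called, took 17.0% ± 1.35 of the counts in RFPLow and 15.5% ± 3.18 in RFPHigh (SD, n = 5 each). Their sum was highest in the RFPHigh sample of mouse 1, with 228890 CPM against 122050 to 167050 CPM in the other RFPHigh samples. The share of reads on no gene was 34.9% ± 2.24 in RFPLow and 41.5% ± 4.27 in RFPHigh (SD, n = 5 each). It was higher in RFPHigh in 5 of 5 mice with no overlap, at most 37.2% in RFPLow and at least 38.4% in RFPHigh. The RFPHigh sample of mouse 5 had the highest share, 48.6%. The part of these differences in the members' values was not tested.

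Other genes of the splicing machinery were counted in the same way. Of 129 such genes 76 were tested, 1 was called higher and 2 lower, or 2.63% lower against the 11.6% of all genes tested, and their median log2 fold change was −0.03. DESeq2 called 1 higher and 2 lower, and limma-voom 3 higher and 3 lower. By edgeR none was called among the 14 tested of U1 and U2 assembly, the 6 of the tri-snRNP, the 10 of the Prp19 and catalytic complexes, the 5 of the exon junction complex and the 17 SR-like proteins and their kinases, where an unadjusted p under 0.05 was found for 3 genes with a higher level and for 0 with a lower one. All 3 calls were among the 24 tested RNA-binding regulators. *Celf2*, a regulator of alternative splicing and RNA stability, had 550.0, 411, 468, 299 and 489 CPM in RFPLow and 952, 741, 733, 668 and 734 CPM in RFPHigh. All RFPHigh samples were above all RFPLow samples, with that of mouse 1 the highest. The fold change was 0.80 (standard error 0.17; edgeR, adjusted p = 0.00240), or −0.31 when scaled by microglia genes, which shifted all genes alike by −1.11. *Ddx17*, an RNA helicase that acts with hnRNP proteins in splicing, had 306, 371, 281, 320.5 and 421 CPM in RFPLow and 207, 234, 168, 201 and 213 CPM in RFPHigh. The groups did not overlap, and *Ddx17* fell in 5 of 5 mice with −0.73 on the log2 scale (standard error 0.19; edgeR, adjusted p = 0.00798). Its call was lost with no low-count filter (0.0553, beside 0.00156 to 0.0553 over the same alternatives), where *Rbfox2*, a splicing regulator under the minimum count that was chosen after its values were seen, was called lower on 51 and 6 counts (−2.83, adjusted p = 0.00454). *Elavl3*, a neuronal RNA-binding protein, had 272, 139, 111, 88.5 and 121 CPM in RFPLow and 34.5, 0, 4.19, 3.79 and 17.1 CPM in RFPHigh. It fell in 5 of 5 mice without overlap, with a fold change of −3.75 (standard error 0.45, adjusted p = 5.67e-06), but it reached the minimum count in 5 RFPLow and 0 RFPHigh samples and so was tested only through the group where it was high. The neuron markers given above were also lower in 5 of 5 mice, and their part in this was not tested.

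The direction of a member is relative to the rest of the library. When all reads, those on no gene included, were taken as the library size, the log2 fold changes of all genes shifted by −0.15, 283 genes were called higher and 581 lower (427 and 489 with TMM), and 7 members were lower. When the library size was taken from the 20 microglia markers, all genes shifted by −1.11, 11 genes were called higher and 3077 lower, and 33 of the 34 tested members were lower, with a median of −1.36 beside −1.14 over all genes tested. With total reads the members' median was −0.40 beside −0.18 over all genes. Such a scaling moves the members and all other genes alike, so that it leaves the distance between their medians as it was. The 5 called members were below 0 under every scaling, filter, test and left-out mouse tried, and each of them lost the call under at least 1 of these. With no low-count filter, where more genes were tested, *Snrpe* alone kept it.

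**Figure D5:**
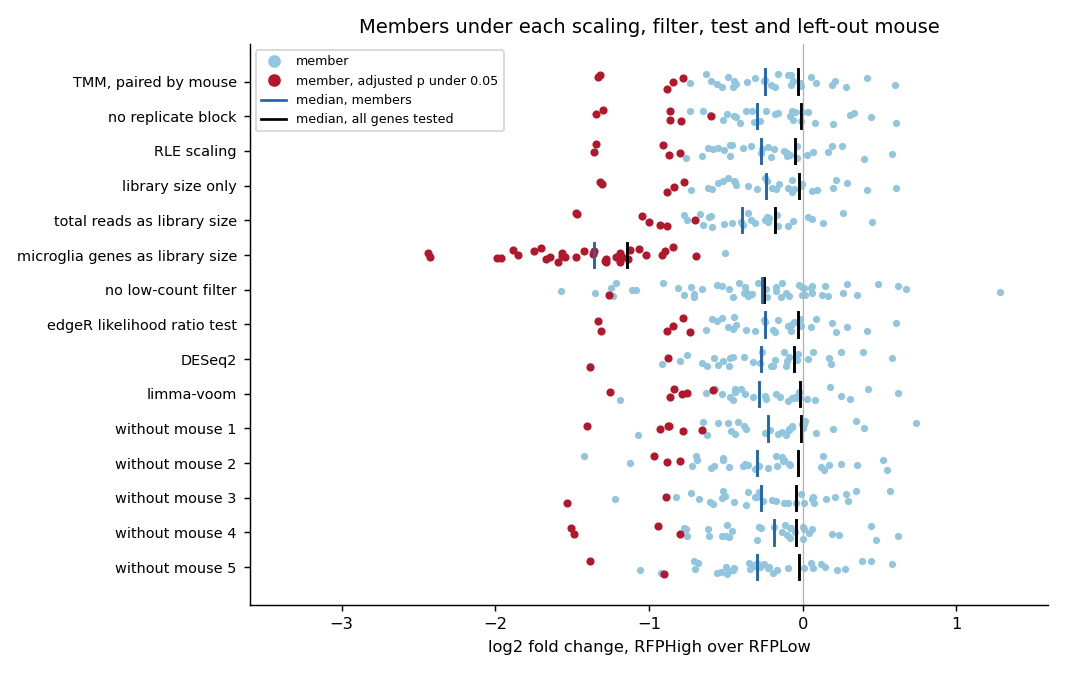
The log2 fold change of RFPHigh over RFPLow (horizontal axis) of every member tested under each setting (rows; vertical scatter within a row is only for legibility), red where the adjusted p was under 0.05, with the median over members (blue line) and over all genes tested (black line). The members' median is −0.25 beside −0.03 with TMM, −1.36 beside −1.14 with the microglia genes as library size and −0.26 beside −0.25 with no low-count filter.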

How the data were processed

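Bulk RNA of RFPLow and RFPHigh cells from 5 mice was analysed. According to the methods, the authors made QuantSeq 3′ FWD libraries and ran the Lexogen FWD UMI pipeline, and they deposited whole-number counts per gene without normalization. The aligner and annotation of these counts are not given in the sources used here; the submitters' processing notes name mm10. Reads on no gene (32.1% to 48.6% of reads per sample) and ambiguous reads (0.295% to 0.436%) were left out of library sizes and tests. Symbols and coordinates came from GENCODE M21 (GRCm38), which matched 47224 of 47643 identifiers.

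Counts were fitted in R 4.3.3 with edgeR 4.0.16 (TMM, quasi-likelihood F-test, mouse as a block, standard error taken as the fold change over the root of F) after a filter at 10 counts in the median library (40.7 CPM) in 5 samples and 15 counts in all. The fit was tested on simulated data. By the methods both populations were sorted from the same mice, and samples were paired here by the number in their titles, taken as the mouse. The deviations from the group means correlated within mice 1 to 5 by 0.22, −0.04, 0.14, −0.01 and 0.02. The members and all gene lists were chosen with earlier results of these data known. Named genes are every member called, the 3 tested members of highest mean CPM in each class, other splicing genes past the threshold with 1 direction in every mouse (up to 6 in each direction), and the most abundant marker of each list. Alternatives were no replicate block, 4 other scalings, no low-count filter, the likelihood ratio test, DESeq2 1.42.0, limma-voom (limma 3.58.1), a fold threshold and each mouse left out. Transcript ends (the last 300 bases, 95% identity over at least 100 bases, BLAST 2.17.0) had a match in another gene for 16 members, among them *Snrpg* (24 counts on its copies) and *Snrpe* (13).

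Marker lists of other cells not described in the report had these calls. CNS macrophage genes gave 0 of 2 tested, monocyte genes 2 lower of 2, erythroid genes 1 lower of 1, mural genes 2 lower of 2, fibroblast genes 1 lower of 2, choroid and ependymal genes 1 lower of 1, and olfactory ensheathing genes 2 higher and 1 lower of 5. None of the 10 listed lymphocyte genes passed the filter, and they summed to 124 ± 48.8 CPM in RFPLow and 9.74 ± 7.88 CPM in RFPHigh (SD, n = 5 each).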

Additional observations from a re-analysis of the deposited data

Results flagged for a closer look

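In 52 groups of 5 values that were examined, 4 held a sample far from the other 4 of its group. Chance gives about 1 in 20, or about 2.6 of the 52 groups. *Srsf7* had 244 CPM in the RFPLow sample of mouse 5, against 158 to 177 in the other RFPLow samples. *Snrpd3* had 179 CPM in the RFPHigh sample of mouse 5, with 136 to 144 in the others. *Celf2* had 952 CPM in the RFPHigh sample of mouse 1, above 668 to 741 in the others. *Elavl3* had 272 CPM in the RFPLow sample of mouse 1, above 88.6 to 139 in the others. Without mouse 5 the log2 fold change of *Srsf7* was −0.70 (edgeR, adjusted p = 0.0550, beside 0.00287 to 0.0551 over its alternatives), and without mouse 1 *Celf2* and *Elavl3* were still called. The causes were not tested.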

How the results depend on the processing

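Members called lower numbered 5 with the mouse as a block and 6 with no replicate block, where *Srsf5* was added, and all genes called numbered 435 higher and 482 lower without the block; the block changed no other call of a named gene. The count of members called lower was 1 with no low-count filter, where more genes were tested, 2 with DESeq2, 2 with an absolute log2 fold change over 1 also required, 33 with the microglia genes as library size and between 2 and 6 with a mouse left out, where fewer samples were tested. The lowest with a mouse left out, 2, came without mouse 3 and without mouse 5, and there were 3 without mouse 2. The share of all tested genes called lower was 8.6% without mouse 3, 10.4% without mouse 5 and 8.3% without mouse 2. It was 9.38% with DESeq2, 4.49% with no low-count filter, 9.14% with the fold threshold and 73.1% with the microglia genes. No setting called a member higher. All genes called higher were 283 with total reads as library size, 11 with the microglia genes and 242 with the fold threshold, and all genes called lower were 3077 with the microglia genes and 834 with no low-count filter. The members' median was −1.36 with the microglia genes. Other splicing genes called higher were 0 with the microglia genes and with the fold threshold, 3 with limma-voom and between 1 and 2 with a mouse left out; those called lower were 68 with the microglia genes and 1 with the fold threshold. No called member turned sign. Scaling by the microglia genes shifts all genes alike by −1.11, which alone turns any gene less than that above 0. So it did *Celf2* (−0.31) and all 7 tested members above 0, among the named ones *Snrpb2* (−1.02, and −0.0639 with total reads, where *Hnrnpk* also turned) and *Sf3b2* (−0.85). Among the tested members, those that turned with no low-count filter were *Srsf11* (0.0117), *Snrpb* (0.0611) and *Sf3b1* (0.0595). With a mouse left out the sign turned for some other members not named by the rule (*Srsf10*, *Hnrnpk*, *Hnrnpll* and *Hnrnpu*, chosen after their values were seen), and of the named genes the range was −0.134 to 0.0873 for *Srsf11*, −0.167 to 0.0566 for *Hnrnpa0*, −0.165 to 0.193 for *Snrpb* and −0.0876 to 0.117 for *Sf3b1*. Other named genes kept their sign but moved. The range was −0.26 to −0.05 for *Hnrnpm*, −0.56 to −0.30 for *Hnrnpa2b1*, 0.01 to 0.25 for *Snrpb2* and 0.17 to 0.45 for *Sf3b2*. The causes were not tested. *Srsf7* and *Snrpe* were each called in 12 of 14 alternatives (the fold threshold not counted), *Hnrnpdl* and *Hnrnph3* in 10 and *Snrpd1* in 8. These tallies include the microglia scaling, which lowers all genes alike. Without it they were 11 of 13 for *Srsf7* and *Snrpe*, 9 for *Hnrnpdl* and *Hnrnph3* and 7 for *Snrpd1*. The low-count filter left 18 members untested, and the smallest difference called among the members was −0.78, beside a median standard error of 0.24.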
